A study of Rattus norvegicus with 8 samples.

Results

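Interferon-stimulated genes and antigen processing genes were described in the colon of rats with and without chemically induced colitis. The members were 41 gene symbols, and a probe belonged to a member when its gene name in the scanner output equalled the symbol. Of these symbols, 40 had a probe, 47 probes in all, and Xaf1 had none. Probes were kept if any group had both of its arrays well above background, which left 39 members among 18184 gene names tested. They were 29 of 31 interferon-stimulated genes, 3 of 3 interferon gamma-inducible GTPases and 7 of 7 antigen processing genes. Ifit1 had a probe but was well above background on 1 of 8 arrays and did not pass.

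Type I interferons signal through a receptor and the STAT and IRF transcription factors, which bind the interferon-stimulated response element (ISRE) and switch on antiviral genes in almost every cell type. Interferon gamma acts mainly at gamma-activated sites (GAS) and also raises the immunoproteasome, which cuts proteins into peptides, and the TAP transporter, which moves those peptides into the endoplasmic reticulum for loading on MHC class I. In the colon the epithelium and the immune cells of the lamina propria both respond to interferons, and several of these genes are also transcribed at a basal level in healthy gut.

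Colon RNA from female Wistar rats, 14 weeks old, was hybridised to 8 Agilent 1-colour arrays, 2 in each of 4 groups. The healthy group ate a sunflower oil diet for 8 weeks and was not given dextran sulfate sodium (DSS), a sulfated polysaccharide that damages the colon epithelium. The n-6 colitis group ate the same sunflower oil diet, the ALA colitis group a diet enriched in α-linolenic acid (a plant n-3 fatty acid) and the fish oil colitis group a diet with fish oil. All 3 colitis groups received 5% DSS for 7 days, so no diet was measured without DSS except sunflower oil. RNA of 6 rats was pooled, out of 6 healthy rats and 10 in each colitis group. The sources used here do not say whether both arrays of a group carry different pools. If each array carries 6 rats, both healthy arrays hold the same 6, and the 2 arrays of a colitis group share some rats. The p-values therefore measure only the spread between arrays, which may be technical. Sample descriptions call the tissue that of a healthy rat on colitis arrays too, and groups were taken from the sample titles. Row and column on the slide changed with the group, so slide position and group cannot be told apart.

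Between 54.0% and 70.1% of probes were well above background per array, fish oil replicate 1 being the dimmest. All 12 of 12 colon epithelium markers were well above background on all 8 arrays. The n-6 pair was the least alike of the 4 replicate pairs, with a correlation of 0.948 over all genes tested. For 38 of 39 members n-6 replicate 1 lay below n-6 replicate 2, against 47.7% of all genes, with a median gap of -0.83 log2 for the members. It was the lowest of the 8 arrays for 20 members, and healthy replicate 2 was the highest for 19. Epithelium markers also had their lowest median on n-6 replicate 1, at -0.94 log2 from each gene's mean over the arrays, against -0.33 to 0.59 on the other 7. On the same array the 5 measured neutrophil markers of 8 had a median of 1.79, against -1.95 to 1.24 elsewhere, and the 7 measured fibroblast markers of 8 had 0.93, against -0.72 to 0.37 elsewhere. Both of these lists were lowest on healthy replicate 2. Red cell markers moved with the whole n-6 group. The 4 measured red cell markers of 8 were at medians of 3.79 and 3.11 on the n-6 arrays, against -1.73 to -0.51 on the other 6, and all 4 were higher in n-6 colitis than in healthy after adjustment (median 5.10, smallest adjusted p 0.00948, limma). The 7 measured macrophage markers of 9 were higher than in healthy by a median of 1.28 in n-6, 0.89 in ALA and 0.65 in fish oil colitis. In n-6 colitis the 8 B cell markers were higher by a median of 2.43 but split between the n-6 arrays. They were at 3.16 on n-6 replicate 1 and -0.91 on n-6 replicate 2, with 1.24 and 3.16 on the ALA arrays. No macrophage or B cell marker passed the adjusted test. The other marker lists had these medians on n-6 replicates 1 and 2. NK cell markers (6 of 8 measured) were at -0.35 and 1.06, and plasmacytoid dendritic cell markers (4 of 5) at 0.56 and -0.41. T cell markers (7 of 10) were at 0.38 and 0.39, and the 8 smooth muscle markers at 0.28 and 0.07. The part of these cell types in the members' values was not tested, and in bulk tissue fewer cells of a type and less RNA per cell cannot be told apart. Differences without n-6 replicate 1 are given beside most results of n-6 colitis that it moved.

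The promoters of the members are shown because many interferon-responsive genes share a known response motif. The symbols were chosen as genes of this kind, so a high share of the motif can follow from the choice itself. RefSeq promoter windows of the build GRCr8, from 250 bases before to 50 bases after the gene start, were matched by symbol for 30 of 41 members. Those not matched were Isg15, Mx2, Ifit1, Ifit2, Oas2, Usp18, Ddx58, Dhx58, Rtp4, Zbp1 and Samd9l. The ISRE core, searched on both strands as GAAA, 2 bases of any kind and GAAA, occurred in 21 of 30 windows (70.0%), against 1312 of all 33469 windows in the table (3.92%). It was present in 13 of 20 interferon-stimulated genes, in 5 of 7 antigen processing genes and in 3 of 3 GTPases. A GAS motif, searched as TTCNNNGAA, which reads the same on both strands, occurred in 7 of 30 windows (23.3%), against 2970 of all windows (8.87%). A match is a run of letters and was not measured as a binding site here.

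Stretches around a match follow, each upstream of its gene start and written along the strand of the gene, with the ISRE core in capitals on whichever strand it lies. In Oas1a and Tapbp the capitals cover a pair of overlapping cores, and the first capitals in Oas1a and Igtp mark a GAS motif. Ifih1, Oas1a and Rsad2 are the 3 of 6 matched genes lower on every colitis array that hold an ISRE core (against 17 of 23 other measured members, 73.9%), and Irf9, Oasl and Cmpk2 are the others. These 3 are shown with Igtp, a GTPase, and 4 antigen processing genes.
Ifih1, chr3:67683983-67684062, minus strand: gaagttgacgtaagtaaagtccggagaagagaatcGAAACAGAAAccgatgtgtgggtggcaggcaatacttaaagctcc
Oas1a, chr12:41330232-41330465, plus strand: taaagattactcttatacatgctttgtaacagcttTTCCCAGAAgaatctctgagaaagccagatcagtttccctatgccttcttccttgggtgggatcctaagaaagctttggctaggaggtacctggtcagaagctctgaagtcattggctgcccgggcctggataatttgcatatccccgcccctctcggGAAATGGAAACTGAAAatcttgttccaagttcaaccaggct
Rsad2, chr6:48788223-48788302, minus strand: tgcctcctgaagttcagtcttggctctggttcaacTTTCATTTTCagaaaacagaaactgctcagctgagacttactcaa
Igtp, chr10:42874898-42874988, plus strand: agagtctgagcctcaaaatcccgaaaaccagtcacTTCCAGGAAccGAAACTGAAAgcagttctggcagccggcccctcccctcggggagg
Tap1, chr20:4668620-4668699, minus strand: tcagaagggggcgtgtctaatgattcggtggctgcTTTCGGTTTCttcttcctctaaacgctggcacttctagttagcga
Tap2, chr20:4652297-4652372, minus strand: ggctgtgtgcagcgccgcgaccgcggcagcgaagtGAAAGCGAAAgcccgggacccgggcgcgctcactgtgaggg
Tapbp, chr20:4967878-4967938, minus strand: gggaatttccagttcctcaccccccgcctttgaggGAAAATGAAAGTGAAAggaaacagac
Psme2, chr15:33052760-33052839, minus strand: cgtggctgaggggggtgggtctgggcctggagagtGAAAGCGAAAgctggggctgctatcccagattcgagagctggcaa

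Several members lie beside each other in the RefSeq windows. Tap1 and Psmb9 start 457 bases apart on chromosome 20 and point away from each other. The ISRE core of Tap1 therefore lies 336 bases before the start of Psmb9, outside the window searched for Psmb9, which had no match of its own. Rsad2 and Cmpk2 start 14.7 kb apart on chromosome 6, also pointing away from each other, and Cmpk2 had no match. Psme2 lies between Psme1 and Irf9 on chromosome 15, 13.8 kb from one and 13.1 kb from the other.

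**Figure D1:**
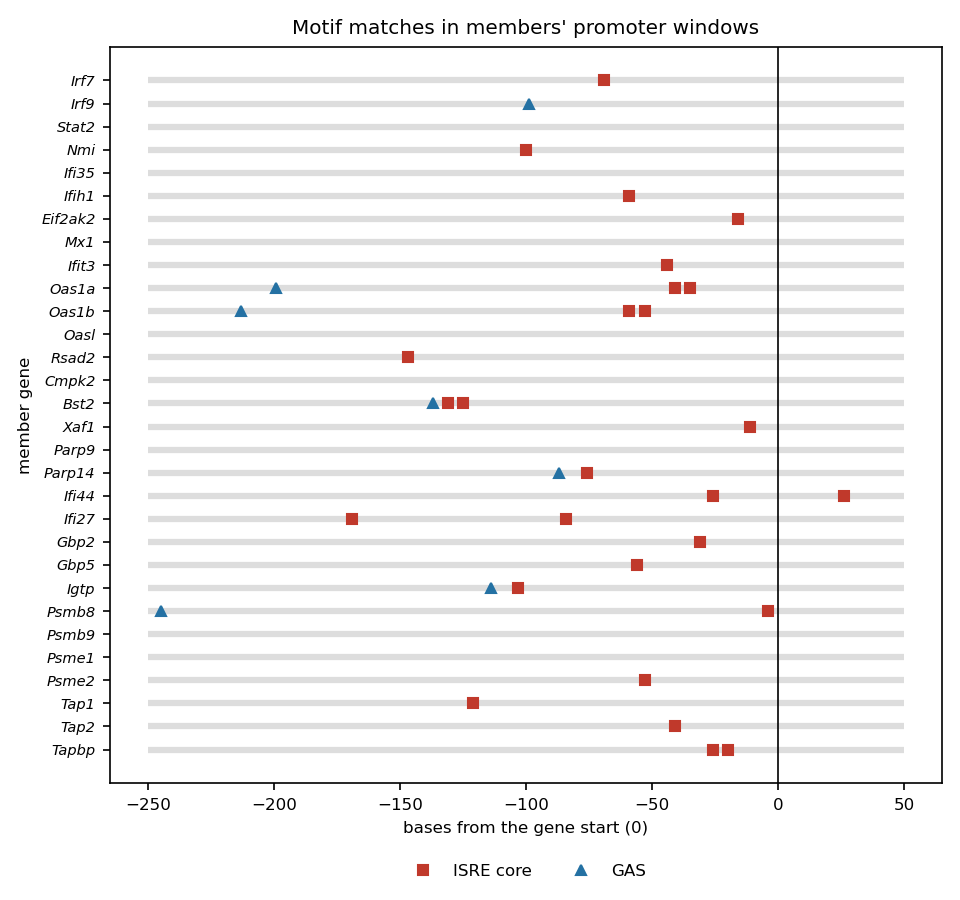
Positions of ISRE core (squares) and GAS (triangles) matches in the promoter windows of the 30 matched members; the x axis gives bases from the gene start and each grey bar is 1 window. ISRE cores lie in 21 windows, nearly all of them upstream of the gene start, and 8 windows, those of Psmb9, Psme1 and Cmpk2 among them, have neither motif.

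The first comparison asks what DSS colitis did on the shared sunflower oil diet. In n-6 colitis 30 of 39 members had a lower mean than in healthy colon, with a median difference of -0.47 log2, while the median over all genes was 0.02. Negative feedback, nucleotide and antiviral effector genes (Usp18, Cmpk2, Oas1a, Oasl, Rsad2), the RNA sensor Ifih1 and the peptide transporter Tap1 were lower by 2.66- to 4.56-fold at unadjusted p under 0.05. With limma and Benjamini-Hochberg adjustment over all genes, 0 of 39 members passed at 0.05, where 0.0385% of all genes did, and the smallest adjusted p of a member was 0.184. At unadjusted p under 0.05, 8 members (20.5%) were lower and 0 higher, beside 7.75% of all genes lower and 6.59% higher. Without n-6 replicate 1, 19 of 39 members were lower, with a median of 0.02. The count of 8 was 2 without n-6 replicate 1, 18 without n-6 replicate 2 and 3 without healthy replicate 2.

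Levels below are on a log2 scale with the 75th percentile of each array set to 0, given for replicate 1 and then replicate 2. Usp18, the protease that removes ISG15 from proteins and dampens interferon receptor signalling, was at -0.46 and 0.67 in healthy, -2.15 and -1.73 in n-6, -2.15 and -1.12 in ALA and -2.04 and -2.12 in fish oil colitis. Every colitis array lay below both healthy arrays. Usp18 was 4.13-fold lower in n-6 colitis (log2 difference -2.05, SE 0.501, limma adjusted p = 0.184). A second Usp18 probe gave -2.46 (SE 0.487). Without n-6 replicate 1 the difference was -1.84, still at unadjusted p under 0.05 (adjusted p = 0.474).

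Cmpk2, a mitochondrial nucleotide kinase induced by interferon, was at 1.89 and 2.78 in healthy, -0.89 and 1.18 in n-6, -0.14 and 0.93 in ALA and 1.16 and 0.92 in fish oil colitis. Its neighbour Rsad2, which encodes the antiviral enzyme viperin, was at 3.24 and 3.18 in healthy, 0.87 and 2.58 in n-6, 1.96 and 1.97 in ALA and 3.08 and 2.57 in fish oil colitis. For both genes the healthy arrays were the highest and n-6 replicate 1 the lowest, and fish oil replicate 1 came within 0.10 log2 of the lower healthy array for Rsad2. In n-6 colitis Cmpk2 was 4.56-fold lower (-2.19, SE 0.720, adjusted p = 0.259). Rsad2 was 2.80-fold lower (-1.48, SE 0.546, adjusted p = 0.294). Without n-6 replicate 1 these became -1.15 (adjusted p = 0.596) and -0.63 (adjusted p = 0.624), neither at unadjusted p under 0.05.

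The 2-5A synthetases make the messenger that activates the RNA-degrading enzyme RNase L. Oas1a was at 0.27 and 0.90 in healthy, -2.03 and -0.48 in n-6, -1.16 and -0.56 in ALA and -0.50 and -0.72 in fish oil colitis. Oasl, a relative that lacks synthetase activity in several species, was at -2.86 and -2.81 in healthy, -4.58 and -4.08 in n-6, -3.29 and -3.35 in ALA and -3.13 and -4.65 in fish oil colitis. Neither gene overlapped between healthy and any colitis array. In n-6 colitis Oas1a was 3.57-fold lower (-1.84, SE 0.546, adjusted p = 0.225) and Oasl 2.82-fold lower (-1.49, SE 0.502, adjusted p = 0.264). Without n-6 replicate 1 the differences were -1.06 (adjusted p = 0.515) and -1.25 (adjusted p = 0.588), neither at unadjusted p under 0.05. Over all processing and leave-out alternatives the Oasl difference ran from -1.74 to -0.40. Omitting an n-6 or healthy array gave -1.74 to -1.25, so the value of -0.40 came from a change of processing. Oas1b, a relative of both genes, did not go with Oas1a and Oasl. It was at 4.93 and 4.88 in healthy and 4.91 and 5.52 in n-6 colitis (0.30, SE 0.375, adjusted p = 0.762). Oas2 was not well above background on either n-6 array, at -5.19 and -5.08. Its mean was 1.82-fold higher in healthy colon (limma adjusted p = 0.578), with healthy arrays at -3.36 and -5.18. Without healthy replicate 1 the difference, n-6 minus healthy, was 0.05.

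Among the sensors of viral RNA, Ifih1 (MDA5) was at -2.41 and -2.38 in healthy, -4.16 and -3.44 in n-6, -2.92 and -3.05 in ALA and -3.61 and -2.84 in fish oil colitis, where replicate 1 was not well above background. Dhx58 (LGP2), which modulates the other sensors, was at -0.83 and -0.78 in healthy, -1.84 and -1.22 in n-6, -1.54 and -1.38 in ALA and -1.33 and -1.54 in fish oil colitis. For both, all 6 colitis arrays lay below healthy. Ifih1 was 2.66-fold lower in n-6 colitis (-1.41, SE 0.390, adjusted p = 0.211), and -1.05 without n-6 replicate 1. Over all processing and leave-out alternatives its difference ran from -1.77 to -0.47. Omitting an n-6 or healthy array gave -1.77 to -1.05, so the value of -0.47 came from a change of processing. Dhx58 was 1.65-fold lower (-0.72, SE 0.321, adjusted p = 0.371), and -0.42 without n-6 replicate 1. The sensor Ddx58 (RIG-I) did not share this, at -2.76 and -2.85 in healthy and -2.52 and -2.99 in n-6 colitis. The sensor Zbp1, at -0.69 and 0.54 in healthy and -0.59 and 0.88 in n-6 colitis, and the kinase Eif2ak2 (PKR), at 0.05 and 0.35 and at 0.06 and 0.41, overlapped between the groups too.

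All 5 signalling members had a lower mean in n-6 colitis, from -0.63 for Irf7 to -0.09 for Nmi, and none at p under 0.05. They ran from -0.14 for Stat2 to 0.52 for Irf7 without n-6 replicate 1. Irf7, the regulator that amplifies interferon production, had its lowest and highest arrays both in n-6 colitis, at 1.36 and 3.67, with healthy at 2.86 and 3.43. Stat2, a subunit of the factor that binds the ISRE, was at 3.51 and 3.68 in healthy, 2.82 and 3.46 in n-6, 3.19 and 3.42 in ALA and 3.76 and 3.28 in fish oil colitis. Irf9, its DNA-binding partner, was at -0.28 and -0.11 in healthy and -1.12 and -0.29 in n-6 colitis. The n-6 arrays lay below healthy for Stat2 and Irf9, for Irf9 by 0.01 log2 at the nearest point. Ifi35, an interferon-induced protein that binds Nmi, was lower by a mean of only 0.13 (log2 difference -0.13, SE 0.437).

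Of the other effectors, Parp9, an ADP-ribosyltransferase partner in interferon responses, was 2.04-fold lower in n-6 colitis, at -0.09 and 0.34 in healthy and -1.26 and -0.54 in n-6 (-1.03, SE 0.365, adjusted p = 0.285). Omitting n-6 replicate 1 gave -0.67 and omitting healthy replicate 2 gave -0.81, neither at unadjusted p under 0.05. Isg15, the ubiquitin-like modifier, was at 3.54 and 3.16 in healthy, 1.91 and 3.27 in n-6, 2.19 and 2.25 in ALA and 2.08 and 2.50 in fish oil colitis. Only n-6 replicate 2 reached the healthy range, and the n-6 difference of -0.76 was -0.08 without n-6 replicate 1. Rtp4, an interferon-induced member of the receptor transporter protein family, was 2.37-fold lower in n-6 colitis (-1.24, adjusted p = 0.361), with -0.48 when n-6 replicate 1 was omitted. The remaining effectors were closer to healthy. Ifi27, at 6.03 and 5.84 in healthy and 5.66 and 6.10 in n-6 colitis, differed by -0.05 (SE 0.337). The dynamin-like antiviral GTPase Mx1 differed by -0.09 (SE 0.363), and Mx2, Samd9l, Ifi44 and Parp14 lay between -0.50 and -0.33 with overlapping arrays, and between -0.18 and 0.29 without n-6 replicate 1. Ifit2 differed by -0.11 (SE 0.751), its ALA arrays being 2.46 log2 apart. Bst2 (tetherin), which holds budding virions at the cell surface, and Ifit3, which binds viral RNA with its family, went the other way. Bst2 was at 1.68 and 1.79 in healthy and 2.39 and 2.89 in n-6 colitis (0.90, SE 0.560, adjusted p = 0.515), and these 2 members were those above healthy on both n-6 arrays, beside 23.8% of all genes.

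**Figure D2:**
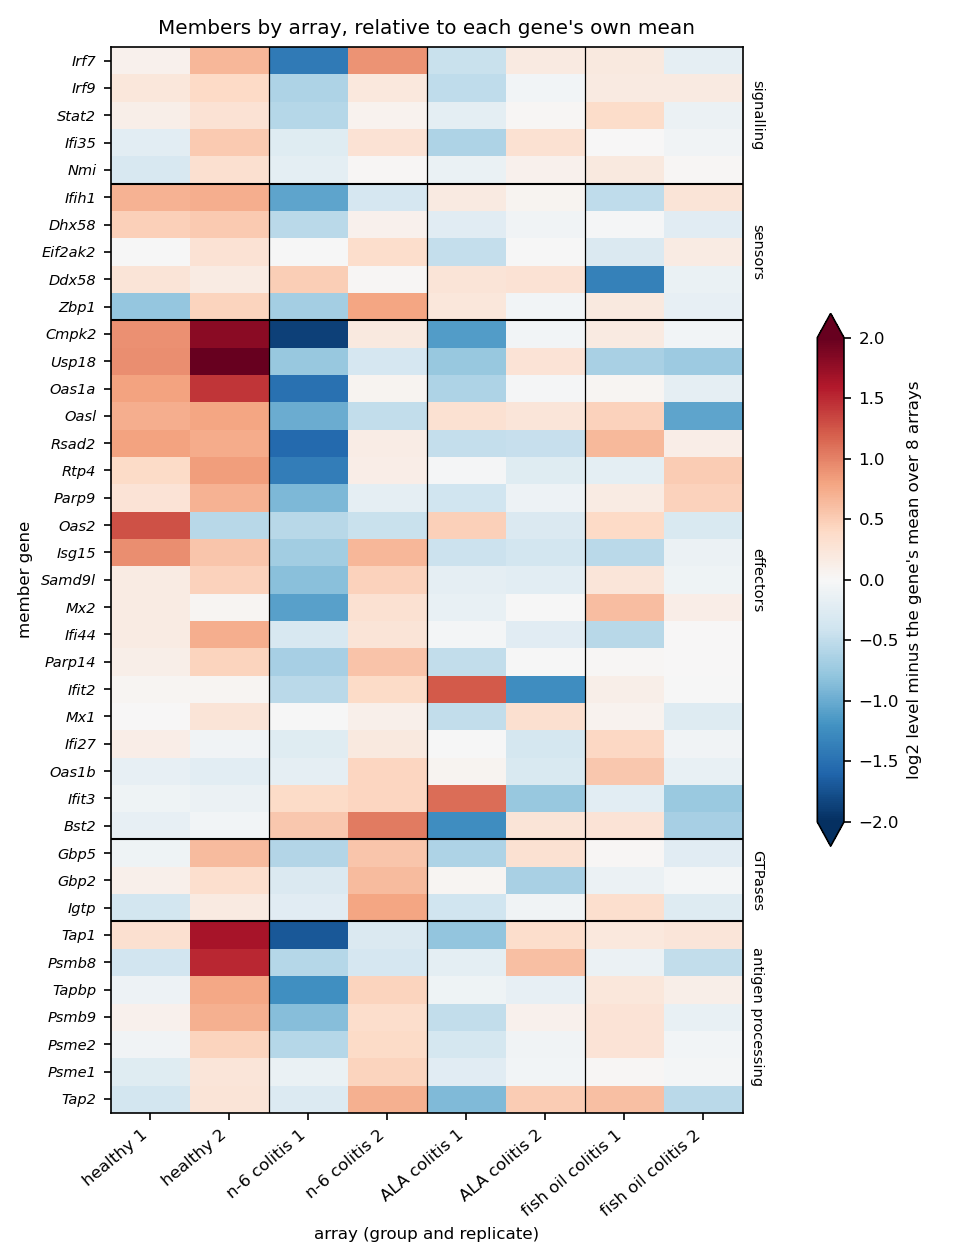
Each row is a member and each column an array; colour gives the log2 level minus the gene's own mean over the 8 arrays (red above, blue below), with members ordered by role and, within a role, by n-6 minus healthy. The n-6 replicate 1 column is the lowest for 20 members and the healthy replicate 2 column the highest for 19.

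Antigen processing was split by member. Tap1, a subunit of the peptide transporter, was at 0.69 and 2.02 in healthy, -1.33 and 0.07 in n-6, -0.43 and 0.72 in ALA and 0.58 and 0.60 in fish oil colitis. It was 3.96-fold lower in n-6 colitis (-1.99, SE 0.654, adjusted p = 0.259), and -1.29 without n-6 replicate 1 (adjusted p = 0.617). ALA replicate 2 overlapped with the lower healthy array. Its partner subunit Tap2 was at 3.50 and 4.13 in healthy, 3.59 and 4.58 in n-6, 2.99 and 4.37 in ALA and 4.47 and 3.33 in fish oil colitis. Tap2 thus did not follow Tap1, with 0.27 (SE 0.631, adjusted p = 0.89) in n-6 colitis. Tapbp (tapasin), which holds MHC class I at the transporter, was at 1.72 and 2.60 in healthy, 0.60 and 2.27 in n-6, 1.74 and 1.66 in ALA and 2.05 and 1.94 in fish oil colitis (-0.73, SE 0.570, in n-6 colitis, and 0.11 without n-6 replicate 1).

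The immunoproteasome subunit Psmb8 was at 1.81 and 3.70 in healthy, 1.63 and 1.86 in n-6, 2.01 and 2.80 in ALA and 2.08 and 1.71 in fish oil colitis. Psmb9, a second such subunit, was at 5.25 and 5.87 in healthy, 4.32 and 5.52 in n-6, 4.67 and 5.25 in ALA and 5.44 and 5.01 in fish oil colitis. Both had lower means in n-6 colitis (Psmb8 -1.01, SE 0.619, adjusted p = 0.51, and Psmb9 -0.65, SE 0.488, adjusted p = 0.601), and both overlapped with healthy. Psmb9 was at -0.04 without n-6 replicate 1, and Psmb8 at -0.07 without healthy replicate 2. Healthy replicate 2 alone was 1.89 log2 above healthy replicate 1 for Psmb8. Psme1 and Psme2 form the PA28 activator that opens the proteasome for peptide release. Psme1 was at 4.87 and 5.36 in healthy and 4.98 and 5.56 in n-6 colitis, with 4.89 and 5.06 in ALA and 5.14 and 5.08 in fish oil colitis. Psme2 was at 5.68 and 6.19 in healthy, 5.18 and 6.13 in n-6, 5.40 and 5.67 in ALA and 6.02 and 5.69 in fish oil colitis. Neither differed from healthy by more than 0.28 log2 in n-6 colitis (0.15, SE 0.337, and -0.28, SE 0.407), though without n-6 replicate 1 they stood at 0.44 and 0.20.

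The interferon gamma-inducible GTPases, which attack vacuoles that hold microbes, were near healthy. Igtp was at 4.51 and 5.05 in healthy, 4.64 and 5.67 in n-6, 4.48 and 4.81 in ALA and 5.21 and 4.62 in fish oil colitis (0.38, SE 0.448, in n-6 colitis). Gbp2 differed by -0.05 (SE 0.413) and Gbp5 by -0.28 (SE 0.516), and all 3 overlapped. All 3 were above healthy without n-6 replicate 1, by 0.29 to 0.89.

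Set side by side in n-6 colitis, interferon-stimulated genes had a median difference of -0.49 from healthy, with 23 of 29 lower and 7 lower at unadjusted p under 0.05. Antigen processing genes had a median of -0.65, with 5 of 7 lower and 1, Tap1, at that p. The order of these medians depended on single arrays, since they were -0.08 and 0.11 without n-6 replicate 1 and -0.35 and -0.07 without healthy replicate 2. Arrays that did not overlap with healthy were more often those of interferon-stimulated genes, 11 of 29 lower (37.9%) against 1 of 7 (14.3%), beside 21.7% of all genes, and the difference between both lists was not tested.

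In ALA colitis 35 of 39 members had lower means than in healthy colon, though diet and DSS both differ in this comparison. The median was -0.48 for interferon-stimulated genes (25 of 29 lower) and -0.40 for antigen processing genes (7 of 7 lower), against 0.04 over all genes. The antigen processing median was -0.02 without healthy replicate 2 and -0.90 without healthy replicate 1. No member passed the adjusted test (0% of all genes did, smallest adjusted p of a member 0.721), and 4 were lower at unadjusted p under 0.05, beside 2.18% of all genes. These were Usp18 (-1.74, SE 0.501), Cmpk2 (-1.94, SE 0.720), Oas1a (-1.44, SE 0.546) and Isg15 (-1.13, SE 0.475). Without healthy replicate 2 the count was 0, with Usp18 at -1.17 and Isg15 at -1.32. It was 1 without ALA replicate 1. Both ALA arrays lay below healthy for 19 members, beside 18.1% of all genes, among them Psmb9 and Psme2. These antigen processing genes were barely apart. ALA replicate 2 and healthy replicate 1 were both at 5.25 after rounding for Psmb9, and at 5.67 and 5.68 for Psme2.

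In fish oil colitis the members differed from healthy by a median of -0.26 for interferon-stimulated genes (23 of 29 lower) and -0.17 for antigen processing genes (6 of 7 lower), against 0.00 over all genes. The adjusted test passed 0 members and 0% of all genes. Usp18 alone was lower at unadjusted p under 0.05, beside 2.13% of all genes, and 0 members were higher, beside 1.76%. It was 4.56-fold lower (-2.19, SE 0.501, adjusted p = 0.994). Both fish oil arrays lay below healthy for 15 members (38.5%), beside 20.5% of all genes. The count of 1 was 4 without either n-6 array, 3 without fish oil replicate 2 and 2 without fish oil replicate 1 or healthy replicate 1. The antigen processing median was 0.17 without healthy replicate 2. Psmb8 differed by -0.86 (SE 0.619) and Tap1 by -0.77 (SE 0.654), the other 5 by -0.34 to 0.09.

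**Figure D3:**
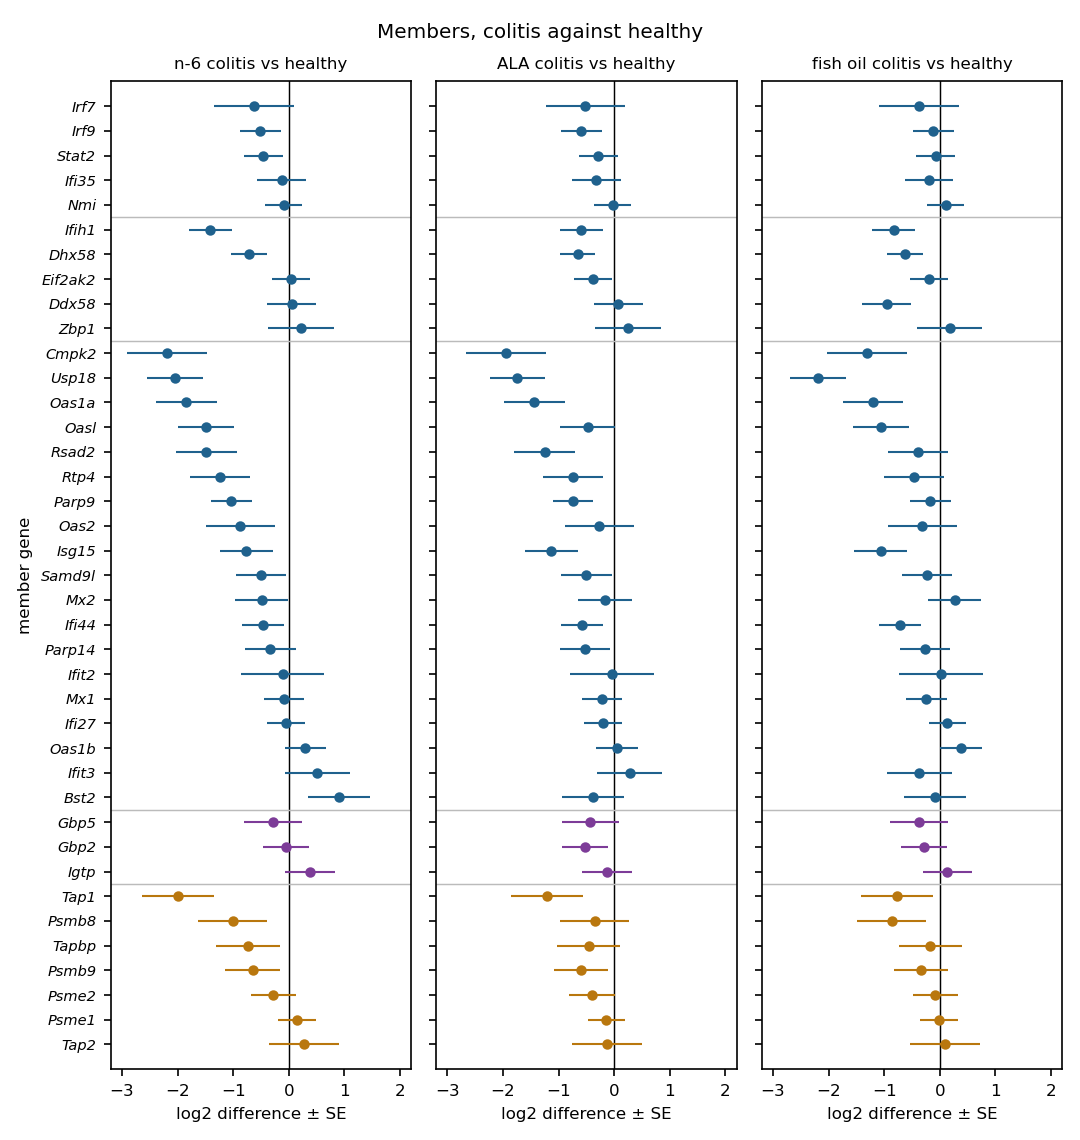
Log2 difference from healthy (dot) with its standard error (bar) for each of 39 members in n-6, ALA and fish oil colitis; blue marks interferon-stimulated genes, purple GTPases and orange antigen processing genes, and the healthy arrays are shared by the 3 panels. Cmpk2 and Usp18 are the leftmost dots in the n-6 and ALA panels, and Usp18 in the fish oil panel, while Psme1 and Tap2 lie within 0.27 of 0 in all panels.

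Pooling the 3 colitis groups against healthy, a comparison added after the data were seen, gave 6 colitis arrays against 2. Of 39 members, 8 lay below both healthy arrays on all 6 colitis arrays (20.5%), and 0 above, beside 5.28% of all genes below and 5.08% above. They were Irf9, Ifih1, Dhx58, Usp18, Oas1a, Oasl, Rsad2 and Cmpk2. All 8 were interferon-stimulated genes (8 of 29), and antigen processing had 0 of 7. The same 8 genes were below healthy without n-6 replicate 1. Without healthy replicate 1 the count was 20, 5 of them antigen processing genes, beside 13.5% of all genes below and 18.6% above. Without healthy replicate 2 it was 10 with 0 antigen processing genes, and 3 members, 1 of them in antigen processing, lay above, beside 12.4% of all genes below and 9.55% above.

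In the fit of this pooled comparison 0 members and 0% of all genes passed after adjustment, the smallest adjusted p of a member being 0.312. At unadjusted p under 0.05, 8 members were lower and 0 higher, beside 4.05% and 3.98% of all genes. Usp18 was 3.98-fold lower (-1.99, SE 0.409, adjusted p = 0.312), Cmpk2 3.51-fold (-1.81, SE 0.588) and Oas1a 2.82-fold (-1.49, SE 0.445). Tap1 was 2.50-fold lower (-1.32, SE 0.534, adjusted p = 0.605), and -1.09 without n-6 replicate 1 or -0.66 without healthy replicate 2, neither at unadjusted p under 0.05. Usp18 was -1.92 and -1.43 under the same omissions, both at unadjusted p under 0.05. The count of 8 became 2 without healthy replicate 2, 5 without healthy replicate 1, 4 and 5 without ALA replicate 1 and 2, 5 without fish oil replicate 1, and it was 13 when n-6 replicate 2 was omitted. Interferon-stimulated genes had a median of -0.40 (25 of 29 lower) and antigen processing genes of -0.45 (5 of 7 lower). The first was -0.19 without n-6 replicate 1, and the second 0.00 without healthy replicate 2 and -0.84 without healthy replicate 1.

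**Figure D4:**
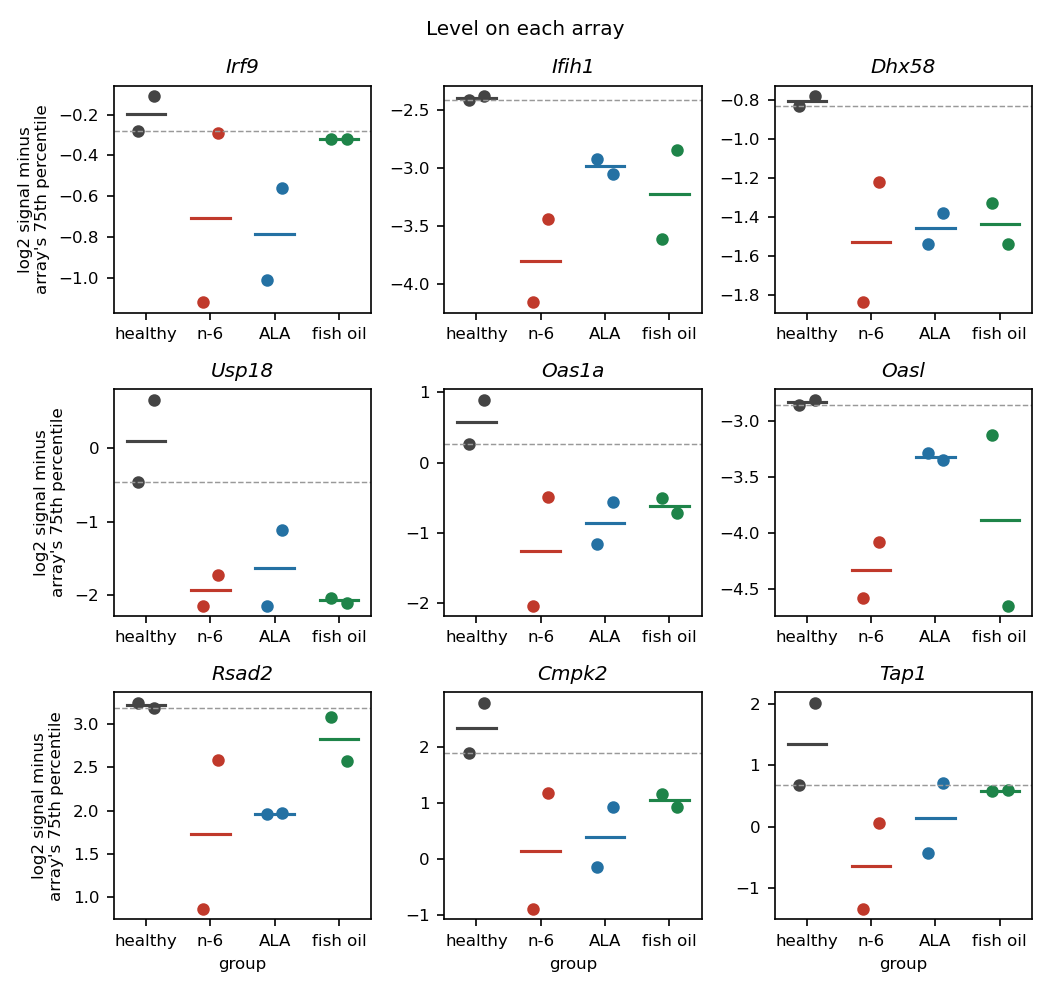
Log2 signal relative to the array's 75th percentile for the 8 members that lay below healthy on all 6 colitis arrays, and for Tap1; dots are arrays, bars group means of 2 arrays and the dashed line the lower healthy array. Usp18 runs from -2.15 to -1.12 in colitis against -0.46 and 0.67 in healthy, while 1 ALA array of Tap1 reaches the dashed line.

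The diets were then compared within colitis, where every array had DSS. Against n-6 colitis, ALA colitis had a median difference of 0.06 for interferon-stimulated genes and 0.04 for antigen processing genes, with 0.07 over all genes, and median scaling turned them to -0.14 and -0.15. The limma fit passed 0 members after adjustment, beside 0.0275% of all genes, and 0 at unadjusted p under 0.05, beside 2.61% of all genes lower and 3.2% higher. Bst2 came nearest, at 0.61 and 2.11 in ALA and 2.39 and 2.89 in n-6 colitis (-1.28, SE 0.560, adjusted p = 0.856). Ifih1 (0.82, SE 0.390, adjusted p = 0.872) and Oasl (1.01, SE 0.502, adjusted p = 0.885) were higher in ALA colitis on both arrays. In all, 4 members were higher on both ALA arrays and 2 lower, beside 16.9% and 13.1% of all genes. The list medians changed sign with the n-6 array left out, from -0.38 to 0.49 for interferon-stimulated and from -0.57 to 0.65 for antigen processing genes.

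Fish oil colitis had medians of 0.19 and 0.20 against n-6 colitis for the same lists, with 0.01 over all genes. No member passed after adjustment, beside 0.0385% of all genes, and 0 had an unadjusted p under 0.05, beside 6.01% of all genes lower and 5.98% higher. Parp9, at -0.20 and 0.10 in fish oil and -1.26 and -0.54 in n-6 colitis, was 1.80-fold higher (0.85, SE 0.365, adjusted p = 0.414). Tap1 was 2.33-fold higher (1.22, SE 0.654, adjusted p = 0.456) and its arrays did not overlap, though within n-6 colitis they were 1.40 log2 apart. Parp9 was 0.49 and Tap1 0.52 higher without n-6 replicate 1. Ddx58 was lower in fish oil colitis (SE 0.439, adjusted p = 0.419), at -4.36 and -3.15, where replicate 1 was not well above background. Its difference ran from -1.60 to 0.05 over the alternatives that were run. Arrays did not overlap for 4 members higher and 3 lower in fish oil colitis, beside 23.1% and 23.6% of all genes. Without n-6 replicate 1 the medians were -0.21 and -0.27.

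Set directly against each other, ALA and fish oil colitis differed by a median of -0.15 for interferon-stimulated and -0.26 for antigen processing genes, against 0.01 over all genes, but by -0.04 and 0.02 without ALA replicate 1. After adjustment 0 members and 0% of all genes passed, and 0 members had an unadjusted p under 0.05, beside 2.98% of all genes lower and 6.62% higher. Rsad2 was lower in ALA colitis on both arrays (-0.86, SE 0.546, adjusted p = 0.591), as were 9 members in all, beside 20.4% of all genes, and 1 was higher, beside 25.3%.

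**Figure D5:**
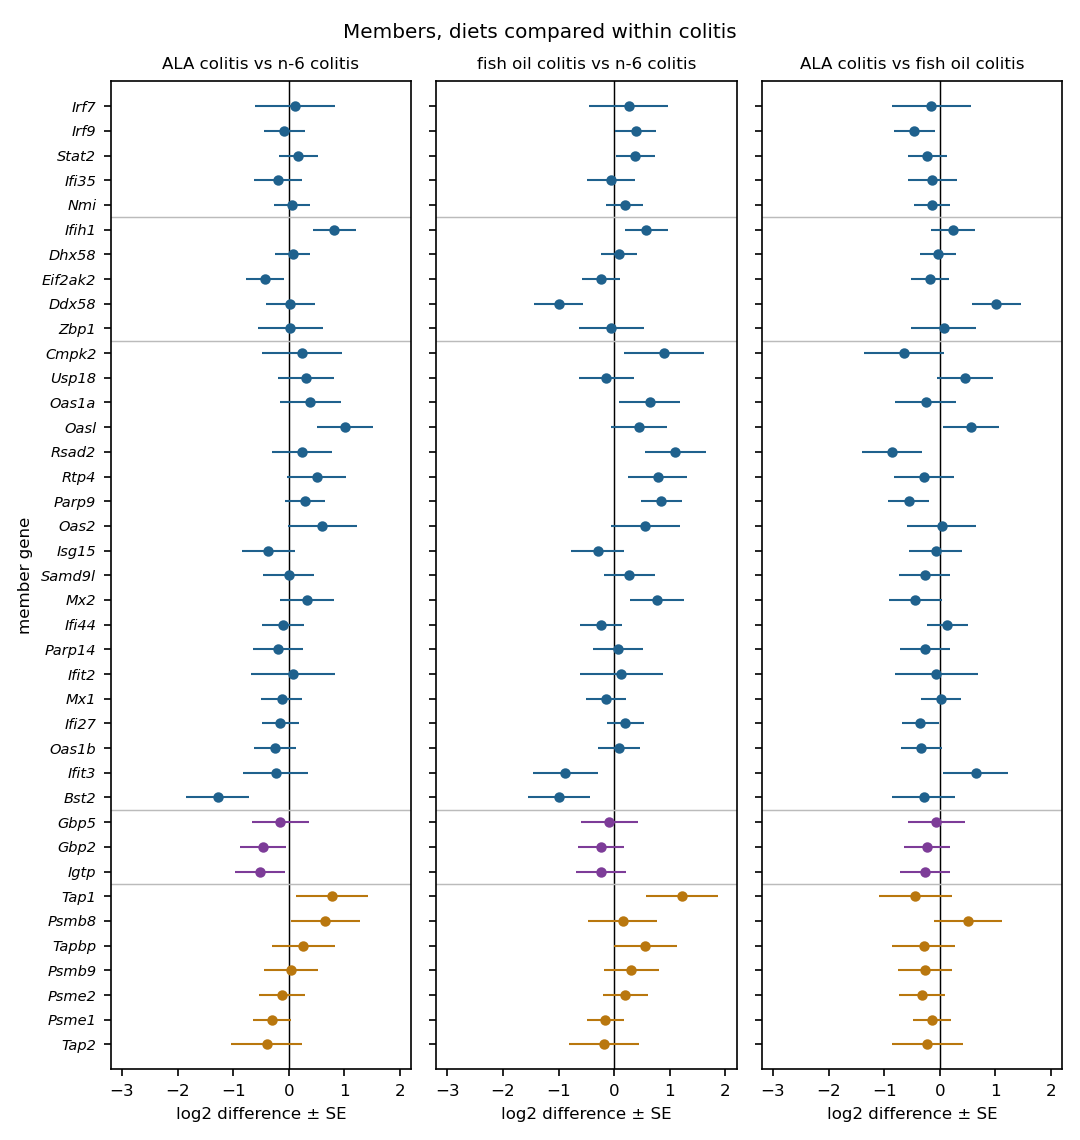
Log2 difference (dot) with its standard error (bar) for each of 39 members between the diets within colitis; colours as for the comparison with healthy, and the arrays of each group appear in 2 panels. The dots scatter on both sides of 0, from -1.28 for Bst2 to 1.01 for Oasl in the ALA panel.

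Other genes of the pathway were taken from fixed lists. Of 34 other interferon pathway genes measured, 7 were lower and 4 higher in n-6 colitis than in healthy colon at unadjusted p under 0.05. Over all genes 7.75% were lower and 6.59% higher at that p. None of the 34 passed after limma adjustment (smallest adjusted p 0.0704), where 0.0385% of all genes did. Their median difference was -0.30, and 0.00 without n-6 replicate 1. Ifitm3 and Ifitm2, membrane proteins that block virus entry, were higher by 3.51 (SE 0.397) and 1.94 (SE 0.354) log2, so this family went against most members. Adar, which edits double-stranded RNA (-1.62, SE 0.298), and Oas1i (-2.32, SE 0.435) were lower. Ifng, the gene of interferon gamma itself, was 3.34-fold lower by mean and not well above background on either n-6 array. Its receptor genes Ifngr1 and Ifngr2 differed by -0.23 and -0.05, and Irf1 by -0.37 (SE 0.548), which without n-6 replicate 1 were 0.12, 0.67 and 0.51. In both n-3 diets Ifitm3 was below n-6 colitis, by -1.67 (SE 0.397) in ALA and -1.78 (SE 0.397) in fish oil.

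The interferon-induced T cell chemokines Cxcl9, Cxcl10 and Cxcl11 lay below healthy on all 6 colitis arrays. In n-6 colitis they differed by -1.56 (SE 0.431), -1.39 (SE 0.579) and -2.05 (SE 0.514), with a smallest adjusted p of 0.189, and without n-6 replicate 1 by -1.27, -0.71 and -1.37. Of 26 other MHC class I pathway genes, 3 were lower and 1 higher at unadjusted p under 0.05 in n-6 colitis, beside 7.75% and 6.59% of all genes, and 0 either way without n-6 replicate 1. B2m, the light chain of every class I molecule, differed by -0.03 (SE 0.345) and the immunoproteasome subunit Psmb10 by 0.03 (SE 0.388). The class I genes RT1-CE15 and RT1-CE3 were lower by 1.39 and 1.36 (log2 differences -1.39 and -1.36, or -0.68 and -0.86 without n-6 replicate 1), and their probes may also bind near-identical class I genes. In fish oil against n-6 colitis 21 of these 26 genes were higher, with a median of 0.69, but 16 with a median of 0.11 without n-6 replicate 1. RT1-N2 was higher by 1.18 (SE 0.382), or 0.99 without that array.

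Where a member had several probes they did not always go together. In n-6 colitis the chosen Parp14 probe gave -0.33 (SE 0.454) and the other -1.95 (SE 0.791), and the Samd9l probes gave -0.50 (SE 0.456) and 0.59 (SE 0.406). The 3 Igtp probes gave 0.38, -0.77 and -0.38. Neither Samd9l probe, nor the Igtp probe at -0.77, had an accession with a RefSeq symbol. Gbp5 (-0.28 and -0.76) and Usp18 (-2.05 and -2.46) had the same sign on both probes, and Eif2ak2 did not (0.04 and -0.75).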

How the data were processed

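Agilent Feature Extraction 11.5.1.1 made the spot intensity values, per the file headers, and the processed intensity is background-subtracted and not scaled between arrays. The authors' deposited value table holds log2 values for 26205 symbols. Its columns correlated with the scanner values at 0.982 to 0.989, with medians of -3.18 to -2.89 and the 75th percentile near 0. The sources used here do not say how it joins probes. From the scanner intensities, log2 values minus each array's 75th percentile were computed, flagged spots were left out and spots of a probe averaged. Of 30367 probes, 20801 passed the background filter described above, and a gene was its brightest probe. limma 3.58.1 (R 4.3.3) fitted all 8 arrays, with Benjamini-Hochberg adjustment over all genes at 0.05. The script was tested on simulated data. With 2 arrays a group, the number of arrays limits precision.

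RefSeq (GRCr8) gave promoters and symbols. The accession of 42 of 47 member probes had the same RefSeq symbol. Named were all members, with array values for those at unadjusted p under 0.05 against n-6 colitis or in n-6 against healthy, for the brightest of each role and for all antigen processing genes, and the other pathway genes of smallest p. Isg15, Dhx58, Irf7, Irf9, Bst2 and the other genes shown beyond that rule were chosen after their values were seen, as were Ifng, the 3 chemokines, Irf1, the interferon gamma receptors, B2m and Psmb10. The members and lists were chosen with earlier results of these data known. Alternatives were other background corrections, scalings, filters, probe rules, fits, the deposited table and leaving out each array.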

Additional observations from a re-analysis of the deposited data

Results flagged for a closer look

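Ddx58, the RNA sensor RIG-I, lay above both healthy arrays on both ALA arrays and below them on both fish oil arrays, a gap of 1.02 log2 between the ALA and fish oil means. The ALA arrays were at -2.75 and -2.72, healthy at -2.76 and -2.85 and fish oil at -4.36 and -3.15, so the ALA side exceeds healthy by 0.01 log2 at the nearest point. Fish oil replicate 1, at -4.36, was not well above background. The difference of fish oil from n-6 colitis ran from -1.60 to 0.05 over the alternatives that were run. Whether the response differs between the diets was not tested beyond the fit of ALA against fish oil colitis (limma, adjusted p = 0.515).

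Ifit3 lay above healthy on both n-6 arrays, at -2.16 and -2.11, and below it on both fish oil arrays, at -2.75 and -3.28. Healthy was at -2.63 and -2.66. The ALA arrays lay on both sides of healthy, at -1.43 and -3.30, further apart than the fish oil and n-6 means. The fish oil and n-6 means were 0.88 log2 apart. This difference was not tested beyond the fit of fish oil against n-6 colitis (limma, adjusted p = 0.512).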

How the results depend on the processing

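No member had an adjusted p under 0.05 in any comparison under any alternative that was run. Counts of members lower at unadjusted p under 0.05 moved most. Against healthy, the count in n-6 colitis ran from 2 to 18 with single arrays left out (8 with all), in ALA colitis from 0 to 6 (4 with all), in fish oil colitis from 1 to 4 (1 with all) and in the pooled comparison from 2 to 13 (8 with all). For fish oil colitis it was 3 with normexp, 2 with quantile normalization, 2 with only probes well above background on all 8 arrays, 4 with only the groups compared in the fit, 2 with the deposited table and 3 when the prior followed the intensity robustly. With no filter on dim probes the pooled count was 4. Over all alternatives, leave-outs included, the pooled difference ran from -1.27 to -0.12 for Oasl and from -1.07 to -0.20 for Ifih1. With the replicate number as a replicate block the counts were 9 in n-6, 6 in ALA, 2 in fish oil and 8 in the pooled comparison, and no adjusted call changed. Differences of replicate 1 minus replicate 2 correlated across genes at -0.168 to 0.47 over the group pairs, with 0.47 for healthy and ALA colitis. Whether same-numbered arrays share a batch was not tested. Of the 8 arrays, only fish oil replicate 1 correlated best with the other array of its own group.

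Antigen processing medians with single arrays left out ran from -1.13 to 0.11 in n-6, -0.90 to -0.02 in ALA and -0.61 to 0.17 in fish oil colitis against healthy. They ran from -0.57 to 0.65 for ALA against n-6 colitis and from -0.46 to 0.02 for ALA against fish oil. Interferon-stimulated medians for ALA against n-6 colitis ran from -0.38 to 0.49. The cause was not tested. Normexp moved the median of all genes by up to 0.24 log2 (fish oil against healthy), and median scaling moved it by 0.14 for n-6 against healthy and by -0.20 for ALA against n-6 colitis. Under normexp, median scaling, quantile normalization and the deposited table both lists stayed below healthy in all 3 colitis groups, while for ALA against n-6 colitis median scaling turned them to -0.14 and -0.15.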
